A study of Homo sapiens with 6 samples.

Results

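The antisense oligonucleotide against LINE1 (ASO-L1) was compared with a non-targeting antisense oligonucleotide (ASO-Ctr) in H9 cells, an established line of human embryonic stem cells kept in the primed state. The comparison used 4 of the 6 libraries of the study, 2 per group, chosen by the transfection named in their labels. The other 2 libraries came from cells given the sense oligonucleotide of L1 (sO-L1). They show where the choice of control changed a value, and all 6 libraries were fitted together. The sO-L1 libraries thus also entered the filter on low counts and the estimate of spread behind the p-values. Every group received its fluorescein-tagged oligonucleotide at 25 nM in 4 ul of Lipofectamine Stem reagent per well. All cells, controls included, also received 0.7 uM trans-ISRIB, 5 uM emricasan and 10 uM of the ROCK inhibitor Y-27632, which were removed after 24 hours. Cells carrying the fluorescein tag were sorted at 48 hours and poly(A) RNA was sequenced with a directional kit. For the time after transfection the labels give both mTeSR and RSeT as the medium, and which of them the cells were in at collection is uncertain. The chemistry and the sequences of the oligonucleotides are not given in the sources used here, so the controls are described only as antisense and sense. Nothing in the labels states that replicates came from separate cultures. The p-values then rest only on the spread between these libraries, which may be technical and was estimated largely over many genes together.

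LINE1 (L1) elements are retrotransposons present in many copies throughout the human genome, within introns as well as between genes, and their RNA is abundant in early embryos and pluripotent cells. An antisense oligonucleotide pairs with its target RNA and, depending on its chemistry, recruits RNase H to cut that RNA or blocks its use. A non-targeting antisense oligonucleotide controls for transfection and for the presence of an antisense oligonucleotide, whereas a sense oligonucleotide also carries the target's own sequence. In the integrated stress response, kinases that phosphorylate the translation factor eIF2 lower general protein synthesis and raise translation of the transcription factor ATF4, which then activates genes for amino acid supply, tRNA charging and cell death. ISRIB acts below the kinases by keeping the eIF2B exchange factor active, and emricasan blocks caspases. The study asked how L1 bears on the totipotency genes of 8-cell human embryos. L1 has no entry in the count table, so the target's own level could not serve as a check of the labels.

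Counts summed to 18897936 and 67192937 in the ASO-Ctr libraries and to 46223290 and 57899009 in the ASO-L1 libraries (replicates 1 and 2). The 2 sO-L1 libraries held 34665403 and 60999413 counts. Replicate 1 of ASO-Ctr was thus the shallowest library, and it also lay at the end of the first principal component, at -45.7 against values from -9.54 to 25.2 in the other libraries. Mitochondrial genes took 3.79% to 4.24% of counts in the 6 libraries. Expression levels are given as counts per 1000000 counts of the scaled library (CPM), replicate 1 before replicate 2. The floor that a count of 0 leaves (3 counts, counting error only) lay at 0.0446 to 0.159 CPM. Differences are log2 fold changes of ASO-L1 over ASO-Ctr ± SE from edgeR's quasi-likelihood fit, in which the replicate number was a block. A gene was called when its Benjamini-Hochberg adjusted p over the 19156 genes tested was under 0.05.

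ASO-L1 cells differed from ASO-Ctr cells in many genes, mostly by small amounts. Of the 19156 genes, 1893 (9.88%) were called higher and 2227 (11.6%) lower in ASO-L1, together 21.5%, and the median absolute log2 fold change of called genes was 0.292. At least a 2-fold change was fitted for 105 higher (0.548%) and 105 lower genes (0.548%). The groups did not overlap in CPM for 1717 of the higher and 2059 of the lower genes, beside 23.8% and 24.7% of all tested genes that lay without overlap in these directions. Without the replicate block the same test called 173 genes higher (0.903%) and 201 lower (1.05%), and of these 374 genes, 372 had been called by the blocked fit. Leaving out replicate 1 of ASO-Ctr gave 1060 higher and 1318 lower genes, and leaving out replicate 1 of ASO-L1 gave 1058 and 1278. The blocked fit compares libraries of the same replicate number, and the fit without it is given beside the genes and lists where it ended a call. Where a library left out ended a call, the value without it is given too, and the lone library of that group is then assumed to vary like the others.

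**Figure D1:**
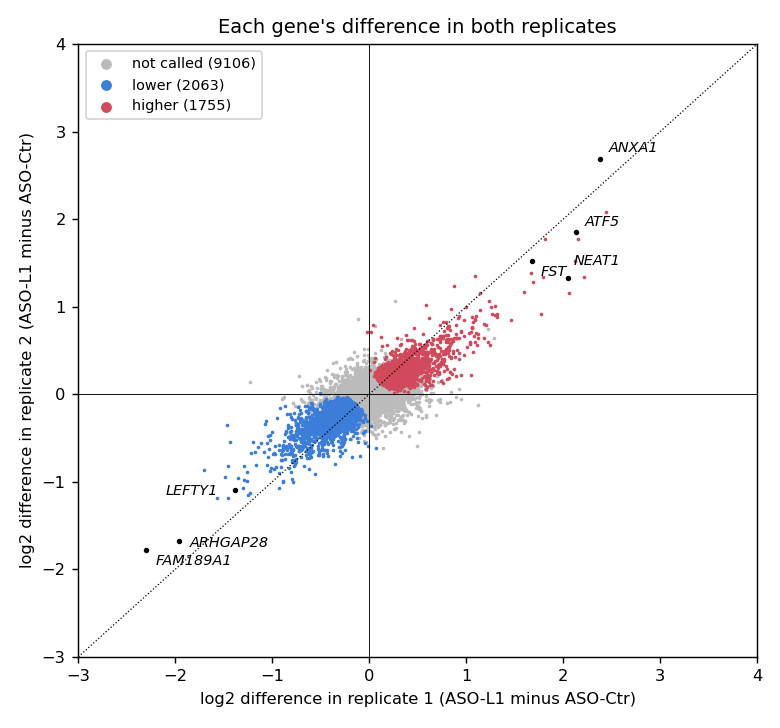
Log2 difference of ASO-L1 minus ASO-Ctr in replicate 1 (x axis) and in replicate 2 (y axis) for the 12924 genes with an average log2 CPM of at least 1, with 0.5 CPM added to each value; each point is a gene, coloured by its call, and the dotted line marks equal differences. Of the called genes plotted, 1754 of 1755 higher and 2060 of 2063 lower genes had the same sign in both replicates, and ANXA1 lies at the upper right.

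Across the 12924 genes in the plot of both replicates, the difference in replicate 1 and that in replicate 2 had a Pearson correlation of 0.779 and a Spearman correlation of 0.718, a description over genes, which are not independent replicates. The 4 libraries are all different, so the 2 differences share no library. They share the fit that made the calls, so the equal signs of called genes are not a separate test.

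The genes with the largest increases were a mixed group of secreted factors, stress-response factors and nuclear RNA. ANXA1, which codes for the phospholipid-binding protein annexin A1, stood at 1.54 and 0.248 CPM in ASO-Ctr and at 10.1 and 4.3 CPM in ASO-L1. Both ASO-L1 libraries lay above both controls, yet replicate 1 was higher than replicate 2 in each group. The log2 fold change was 3.34 ± 0.218 (10.2-fold, adjusted p = 2.8e-16), and without the block the adjusted p was 0.0588. FST, the gene of the activin-binding protein follistatin, was at 71.1 and 54.8 CPM in ASO-Ctr and at 228 and 158 CPM in ASO-L1, a rise of 1.59 ± 0.05 (3.02-fold, adjusted p = 4.5e-28).

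VGF, a gene for a secreted neuropeptide precursor, rose 3.92-fold, from 21.6 and 16.5 CPM to 97.8 and 57.6 CPM. TAC1, the precursor gene of substance P, rose 4.49-fold, from 1.22 and 1.01 CPM to 7.0 and 3.82 CPM. KLF4, a transcription factor of naive pluripotency and of epithelial cells, rose 3.76-fold from low levels, 0.903 and 1.54 CPM, to 6.01 and 4.66 CPM. NEAT1, the long noncoding RNA that builds nuclear paraspeckles, rose 3.09-fold, from 6.74 and 11.6 CPM to 29.5 and 29.8 CPM. In each of these genes the lower ASO-L1 library lay above the higher ASO-Ctr library. ARHGAP9, which codes for a GTPase-activating protein, was at 0.69 and 1.06 CPM in ASO-Ctr and at 4.47 and 2.97 CPM in ASO-L1. Its annotated span overlaps GLI1 and MARS on the opposite strand, and whether strand was used in counting is not given, so its value is uncertain. The same holds for ATF5, which overlaps IL4I1 and NUP62, and for DDIT3, which overlaps MARS and MBD6. Overlaps were looked up only for the 24 genes with the largest changes. ATF5, INHBE, DDIT3 and CHAC1 were also among the 12 largest increases, and all are members of the stress-response lists described with their values below.

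The largest decrease was that of FAM189A1, which stood at 8.87 and 8.13 CPM in ASO-Ctr and at 1.4 and 2.0 CPM in ASO-L1, a log2 fold change of -2.27 ± 0.142 (4.81-fold lower, adjusted p = 1.8e-17). ARHGAP28, the gene of another GTPase-activating protein, was at 34.8 and 36.7 CPM in ASO-Ctr and at 8.55 and 11.1 CPM in ASO-L1. Its groups were far apart, and the fall of 1.85 ± 0.08 on the log2 scale (adjusted p = 1.6e-24) had an adjusted p of 0.00056 without the block. IMMP2L, which codes for a subunit of the mitochondrial inner membrane peptidase, was 3.08-fold lower, with 3.72 and 3.27 CPM in ASO-Ctr and 1.03 and 1.16 CPM in ASO-L1. CTNNA2, the gene of the neuronal catenin alpha-N, was 2.42-fold lower, with 8.28 and 7.91 CPM against 3.05 and 3.49 CPM. None of these decreases had overlapping groups. LEFTY1, an inhibitor of Nodal signalling, was 2.6-fold lower, and TBX10, SAMD12, TMEM179, RP11-526J3.3, KIAA1456 and ZNF66 were also among the 12. FAM189A1, ARHGAP28, IMMP2L, CTNNA2, SAMD12, TMEM179 and ZNF66 overlap annotated genes on the opposite strand, such as LRRN3 within IMMP2L, and their values are uncertain in the same way. RP11-526J3.3 and KIAA1456 had no match in the annotation.

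**Figure D2:**
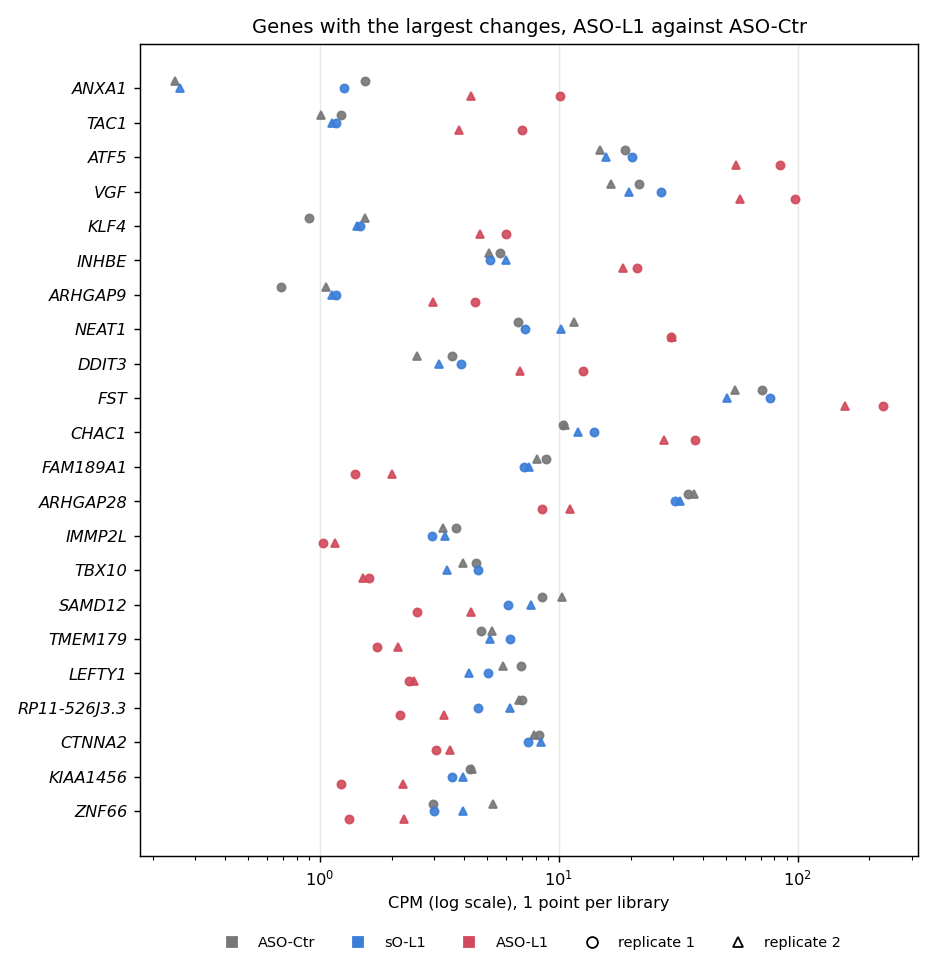
CPM on a log axis of 22 of the 24 genes with the largest increases and decreases in ASO-L1 against ASO-Ctr, 1 point per library, coloured by group and shaped by replicate. In all 22 the ASO-L1 points lie outside the range of the ASO-Ctr points. The genes were selected for large differences between these same libraries, so this separation follows largely from the selection. Of all tested genes, 23.8% lay without overlap in the higher and 24.7% in the lower direction. For most genes drawn the sO-L1 points lie near those of ASO-Ctr.

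Of these 24 genes, 11 of the 12 increases and 11 of the 12 decreases were also called without the replicate block, the exceptions being ANXA1 and ZNF66 (adjusted p = 0.0832). All 24 were also called in the same direction against sO-L1, a comparison that uses the same ASO-L1 libraries. The 2 controls differed by between -0.31 and 0.26 on the log2 scale for the increases and by between -0.46 and 0.14 for the decreases. They were called different for SAMD12 alone, which was lower in sO-L1 than in ASO-Ctr by -0.45 (adjusted p = 0.026).

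Genes of the integrated stress response were higher in ASO-L1 at 48 hours. Every group had received ISRIB, which was removed after 24 hours. Of 14 tested regulators of the response, 11 were called higher and 1 lower, beside 9.88% and 11.6% of all genes, and their median log2 fold change was 0.54 (all genes -0.0024). Of 30 effectors that ATF4 is known to activate, 27 were called higher and 0 lower, with a median of 0.57. Of 20 cytosolic aminoacyl-tRNA synthetases, which load amino acids onto tRNA, 11 were higher and 1 lower, with a median of 0.19. Without the block 8, 18 and 5 members of these lists were called higher and 0 lower, beside 0.903% of all genes called higher. In bulk RNA a change in the number of cells that express a gene cannot be told apart from a change in the RNA per cell.

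Among the transcription factors of the response, ATF5 stood at 18.9 and 14.9 CPM in ASO-Ctr and at 84.3 and 55.1 CPM in ASO-L1. This was a 4.02-fold rise (log2 fold change 2.01 ± 0.07, adjusted p = 4.9e-28), with replicate 1 again higher in both groups. ATF3 was at 9.13 and 10.3 CPM in ASO-Ctr and at 23.2 and 21.1 CPM in ASO-L1, a rise of 1.16 ± 0.09 (adjusted p = 1.6e-14). DDIT3, which codes for the death-promoting factor CHOP, was at 3.56 and 2.55 CPM against 12.6 and 6.89 CPM, a rise of 1.61 ± 0.134 (adjusted p = 1.9e-13). CEBPB, a partner of ATF4 on DNA, rose 1.86-fold, from 16.4 and 16.6 CPM to 36.1 and 27.0 CPM. The messenger RNA of ATF4 itself, whose control is mainly at translation, changed less. It was at 342 and 313 CPM in ASO-Ctr and at 465 and 412 CPM in ASO-L1, a rise of 0.42 ± 0.05 (adjusted p = 7.3e-10), and it was not called without the block (adjusted p = 0.0568).

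Feedback genes of the response rose as well. PPP1R15A, which codes for the GADD34 subunit that directs dephosphorylation of eIF2, was at 13 and 14.2 CPM in ASO-Ctr and at 23.9 and 19.8 CPM in ASO-L1 (log2 fold change 0.64 ± 0.08, adjusted p = 4.6e-08). TRIB3, a pseudokinase that restrains ATF4, was at 10.2 and 11.8 CPM against 36.0 and 22.8 CPM. Its fitted rise of 1.30 ± 0.229 had an adjusted p of 0.0301, and the call was lost when the 4 libraries of these groups were fitted alone. The upstream kinases differed by small amounts. EIF2AK3 (PERK) was higher by 0.20 ± 0.06, EIF2AK4 (GCN2) lower by 0.22 ± 0.05, and neither was called without the block (adjusted p = 0.227 and 0.328). The call of EIF2AK4 was also lost without replicate 1 of ASO-Ctr (0.0824), and that of EIF2AK3 without replicate 2 of ASO-Ctr (0.161) or of ASO-L1 (0.128). EIF2AK1 (HRI) had a difference of -0.13 ± 0.05 (adjusted p = 0.0504) and EIF2AK2 (PKR), the sensor of double-stranded RNA, one of -0.10 ± 0.05 (adjusted p = 0.153).

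The effectors with the smallest p-values act in amino acid supply and redox balance. ASNS, asparagine synthetase, was at 106 and 97.2 CPM in ASO-Ctr and at 251 and 203 CPM in ASO-L1, a 2.22-fold rise (adjusted p = 1.4e-23). SLC7A11, the cystine transporter, was at 47.2 and 54.3 CPM against 113 and 108 CPM, a 2.17-fold rise (adjusted p = 8.3e-21). In both genes the lower ASO-L1 library lay well above the higher ASO-Ctr library. INHBE, a subunit gene of an activin-like factor, rose 3.74-fold, from 5.68 and 5.09 CPM to 21.3 and 18.6 CPM. CHAC1, which degrades glutathione, rose 2.93-fold, from 10.4 and 10.6 CPM to 37.1 and 27.6 CPM. Further rises that were called with and without the block were those of PSAT1 (1.61-fold) in serine synthesis, MTHFD2 (1.78-fold) in mitochondrial folate metabolism, the secreted factor STC2 (2.57-fold) and the mTOR inhibitors DDIT4 (2.14-fold) and SESN2 (1.59-fold). The 3 effectors that were not called were ALDH18A1, SLC1A4 and CTH, with log2 fold changes of -0.12, 0.23 and 0.11.

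Among the tRNA synthetases, CARS for cysteine was at 64.7 and 63.6 CPM in ASO-Ctr and at 114 and 102 CPM in ASO-L1 (1.67-fold, adjusted p = 7.4e-16). AARS for alanine was at 235 and 241 CPM against 351 and 329 CPM (1.43-fold, adjusted p = 2.2e-11). WARS and NARS, for tryptophan and asparagine, rose 1.36-fold and 1.32-fold. These 4 enzymes were called without the block too.

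ATF4 and its partners are known to bind a composite C/EBP-ATF element, and the letters TGATGNAA were searched on both strands in the 250 bases before each gene's start in the RefSeq promoters of GRCh38.p14. Of the 3 lists, 51 genes had a promoter entry and 11 of them (21.6%) held the letters, against 1061 of 27305 genes (3.89%) in the whole table. A gene can have several starts, and counted per window the letters stood in 15.6% of the 77 windows of the listed genes and in 3.14% of the 35116 windows of the table. The lists were drawn up from genes already known for this response. These shares therefore describe the lists and are not a result of these libraries. All 11 genes were called higher in ASO-L1. Windows are shown for the 6 genes in which they lay upstream of every listed start, in the direction of the gene. Capitals mark the letters on either strand.
ATF3 (chr1:212565190-212565249, plus strand): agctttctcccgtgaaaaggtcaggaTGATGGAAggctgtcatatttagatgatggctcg
PPP1R15B (chr1:204412011-204412067, minus strand): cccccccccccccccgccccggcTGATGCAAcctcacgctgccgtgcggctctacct
CHAC1 (chr15:40953236-40953295, plus strand): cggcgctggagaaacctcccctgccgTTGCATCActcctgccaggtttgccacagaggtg
ASNS (chr7:97872443-97872502, minus strand): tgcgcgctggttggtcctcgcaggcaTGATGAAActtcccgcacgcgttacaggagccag
AARS (chr16:70289660-70289719, minus strand): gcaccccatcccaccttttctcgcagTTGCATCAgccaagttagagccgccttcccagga
IARS (chr9:92293698-92293736, minus strand): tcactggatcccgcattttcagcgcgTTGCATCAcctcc

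A match of letters is a description of these windows, since no binding was measured. The ATF3 letters begin 191 bases before its start and those of ASNS 68 bases before. PPP1R15B, the constitutive counterpart of PPP1R15A, was at 90.7 and 87.9 CPM in ASO-Ctr and at 113 and 109 CPM in ASO-L1. This rise was 1.25-fold (adjusted p = 2.2e-06, and 0.0527 without the block). The call of IARS was lost without the block (0.258) and without replicate 2 of ASO-Ctr (0.158).

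**Figure D3:**
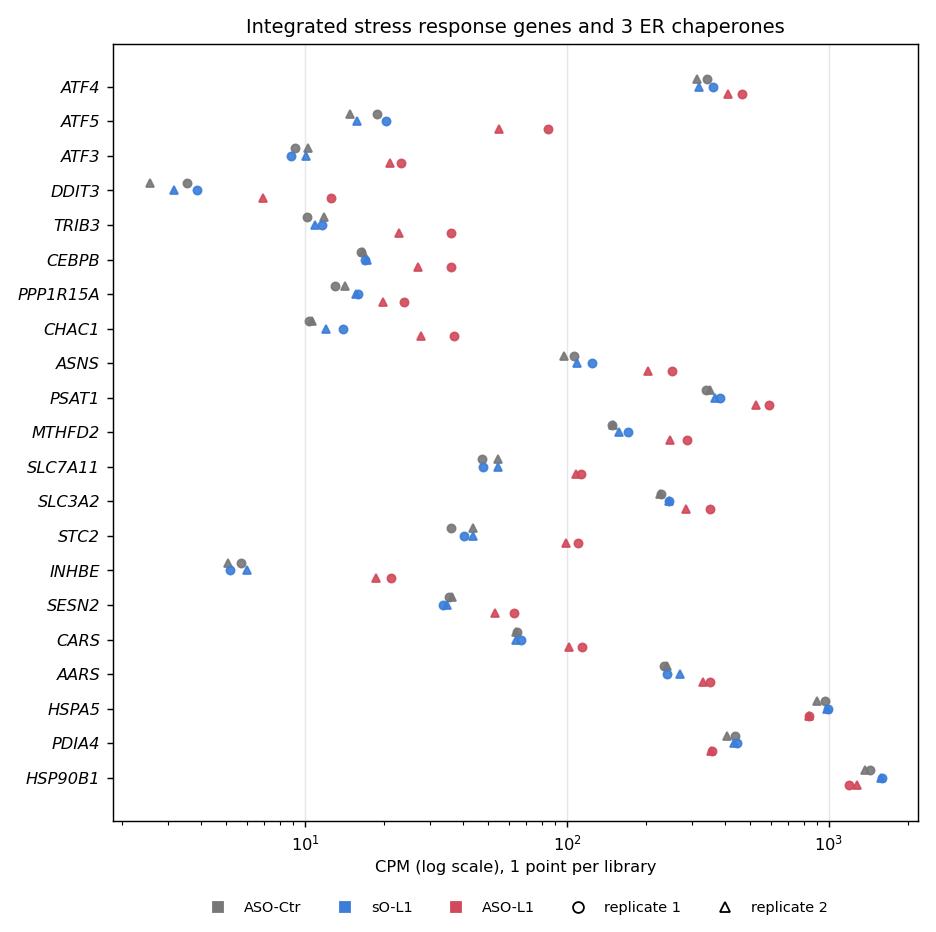
CPM on a log axis of 18 integrated stress response genes and 3 chaperones of the endoplasmic reticulum (HSPA5, PDIA4 and HSP90B1), 1 point per library, coloured by group and shaped by replicate. The ASO-L1 points of these 18 stress-response genes lie above both controls, whereas those of the 3 chaperones lie below both. The genes were picked for the figure and do not stand for their whole lists. Of 22 chaperones and folding genes tested, 4 were called lower, 1 higher and 17 not called. EIF2AK4 and TARS, stress-response list members called lower, are not drawn.

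Chaperones of the endoplasmic reticulum are known to rise when unfolded proteins accumulate there. Of 22 tested, 1 was called higher (4.55%) and 4 lower (18.2%), beside 9.88% and 11.6% of all genes, and the median log2 fold change was -0.06. HSPA5, which codes for the chaperone BiP, was at 965 and 899 CPM in ASO-Ctr and at 839 and 840 CPM in ASO-L1 (log2 fold change -0.15 ± 0.05, adjusted p = 0.0139). PDIA4 was at 436 and 409 CPM against 357 and 354 CPM (-0.25 ± 0.05, adjusted p = 5.4e-05). The groups of both genes did not overlap, yet none of the 5 calls held without the block (4 members had an unadjusted p under 0.05). Without replicate 1 of ASO-Ctr or of ASO-L1, 2 members were called lower, and HSPA5 was not among them (adjusted p = 0.4 and 0.233). HERPUD1, in the degradation pathway of the endoplasmic reticulum and also a target of ATF4, was the member called higher, by 0.31 ± 0.07. A list of 20 heat shock genes held cytosolic and mitochondrial chaperones and their transcription factor HSF1. Of these, 2 were called higher (HSPB1 by 0.30 and HSF1 by 0.19) and 2 lower, with a median of 0.01. Fewer were called without replicate 1 of either group. Without the block 0 of the 20 were called by edgeR, with 3 at an unadjusted p under 0.05.

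Many targets of p53, the transcription factor of the DNA damage response, were higher in ASO-L1. Of 27 tested, 16 were called higher and 1 lower with the block, beside 9.88% and 11.6% of all genes. Without it 8 were higher and 0 lower, beside 0.903% and 1.05% of all genes. The list had a median log2 fold change of 0.21. PLK2 stood at 24.2 and 24.3 CPM in ASO-Ctr and at 46.5 and 45.5 CPM in ASO-L1, a 1.89-fold rise (adjusted p = 4.3e-16). MDM2, the ligase that degrades p53, was at 120 and 126 CPM against 178 and 166 CPM (1.39-fold, adjusted p = 1.4e-10). CDKN1A, the cell cycle inhibitor p21, was at 47.6 and 43.2 CPM against 71.6 and 60.4 CPM (1.45-fold, adjusted p = 1.5e-10). All 3 also passed without the block. PHLDA3 and GADD45A rose 1.63-fold and 1.68-fold. The member called lower was SPATA18, by 0.35 (adjusted p = 0.0156), a call lost without replicate 1 of ASO-L1 (0.122) or replicate 2 of ASO-Ctr (0.423).

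Regulators of apoptosis moved in both directions, in cells that had been given a caspase inhibitor until 24 hours. Of 22 tested, 5 were called higher and 2 lower, beside 9.88% and 11.6% of all genes. BBC3, the p53-activated death gene also known as PUMA, was at 16.5 and 16.6 CPM in ASO-Ctr and at 26.6 and 23.9 CPM in ASO-L1 (1.5-fold, adjusted p = 5.1e-08), and it was the 1 member called without the block. HRK, another death gene of the BH3-only family, rose 1.57-fold and CASP8, an initiator caspase, 1.44-fold, while BID fell by 0.26 on the log2 scale. Without replicate 1 of ASO-Ctr 3 regulators were higher and 1 lower, and without replicate 1 of ASO-L1 3 and 0, with BID not called (adjusted p = 0.136).

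Many immediate-early and AP-1 genes and targets of YAP were higher in ASO-L1. Of 19 immediate-early and AP-1 genes, 11 were called higher and 2 lower, beside 9.88% and 11.6% of all genes, with a median log2 fold change of 0.23. Of 15 targets of the YAP-TEAD complex, which responds to cell shape and attachment, 10 were called higher and 0 lower, with a median of 0.39. Without the block 2 and 6 members were called higher and 0 lower, and without replicate 1 of ASO-Ctr 7 of the AP-1 list. FOSL1, a subunit of AP-1, was at 20.3 and 18.8 CPM in ASO-Ctr and at 38.2 and 32.7 CPM in ASO-L1 (1.81-fold, adjusted p = 1.9e-13). AJUBA, a scaffold protein of the Hippo pathway, was at 53.3 and 62.6 CPM against 115 and 102 CPM (1.84-fold, adjusted p = 1.1e-12). CYR61, a secreted matrix protein, was at 24.2 and 28.9 CPM against 42.7 and 45.1 CPM (1.64-fold, adjusted p = 1.8e-12). None of these 3 genes had overlapping groups. EGR1, an immediate-early factor, went the other way, from 35.0 and 47.6 CPM to 25.2 and 34.2 CPM (fall of 0.48 ± 0.06, adjusted p = 2.7e-08). The higher ASO-L1 library lay just under the lower ASO-Ctr library, and without the block the adjusted p was 0.213. FOS, the founding subunit of AP-1, was at 18.8 and 37.9 CPM in ASO-Ctr and at 21.8 and 28.0 CPM in ASO-L1. Its groups overlapped and it was not called (log2 fold change -0.19, adjusted p = 0.334). The fitted change of FOS was -0.34 without replicate 1 of ASO-Ctr and -0.39 without replicate 1 of ASO-L1.

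Genes of cholesterol synthesis and uptake were lower. Of 24 tested, 0 were called higher and 17 lower, beside 9.88% and 11.6% of all genes, with a median log2 fold change of -0.20. DHCR7, the last enzyme of the pathway, was at 200 and 189 CPM in ASO-Ctr and at 171 and 151 CPM in ASO-L1 (1.22-fold lower, adjusted p = 1.2e-05). HMGCS1, an early enzyme, was at 630 and 529 CPM against 509 and 474 CPM (1.17-fold lower, adjusted p = 0.00022). The ASO-Ctr libraries of HMGCS1 lay farther apart than the means of its groups. Without the block 1 member was called lower, beside 1.05% of all genes, with 4 members at an unadjusted p under 0.05. Without replicate 1 of ASO-L1 the count was 6 of 24, without HMGCS1 (adjusted p = 0.0954).

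Other metabolic lists were divided. Of 26 hypoxia and glycolysis genes, 9 were called higher and 3 lower, beside 9.88% and 11.6% of all genes, with a median of 0.00. The 3 lower genes were the mitophagy receptors BNIP3 (1.58-fold) and BNIP3L (1.37-fold) and the kinase PDK1 (1.46-fold), which holds pyruvate back from mitochondria, and all 3 were also called without the block. EGLN3, an oxygen sensor, rose 1.43-fold and was the 1 gene called higher without the block. With replicate 1 of ASO-Ctr left out, 5 of the 26 were called higher. Of 19 antioxidant genes under NRF2, 8 were higher and 3 lower. Without the block HMOX1, which degrades heme, was the 1 called. With the block its log2 fold change was 0.93 and it was not called (adjusted p = 0.129). The fitted change of HMOX1 was 0.77 without replicate 1 of ASO-Ctr and 1.18 without replicate 2. It was 0.67 without replicate 1 of ASO-L1 and 1.26 without replicate 2. NQO1, a quinone reductase, was at 73.9 and 58.3 CPM in ASO-Ctr and at 110 and 84.2 CPM in ASO-L1 (1.47-fold, adjusted p = 5e-12, and 0.12 without the block). ME1, a source of NADPH, fell by 0.59 (0.0549 without the block). Of 24 nuclear genes of oxidative phosphorylation, 3 were called higher and 0 lower, and without the block or without replicate 1 of ASO-Ctr 0 were higher (2 at an unadjusted p under 0.05 without the block).

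**Figure D4:**
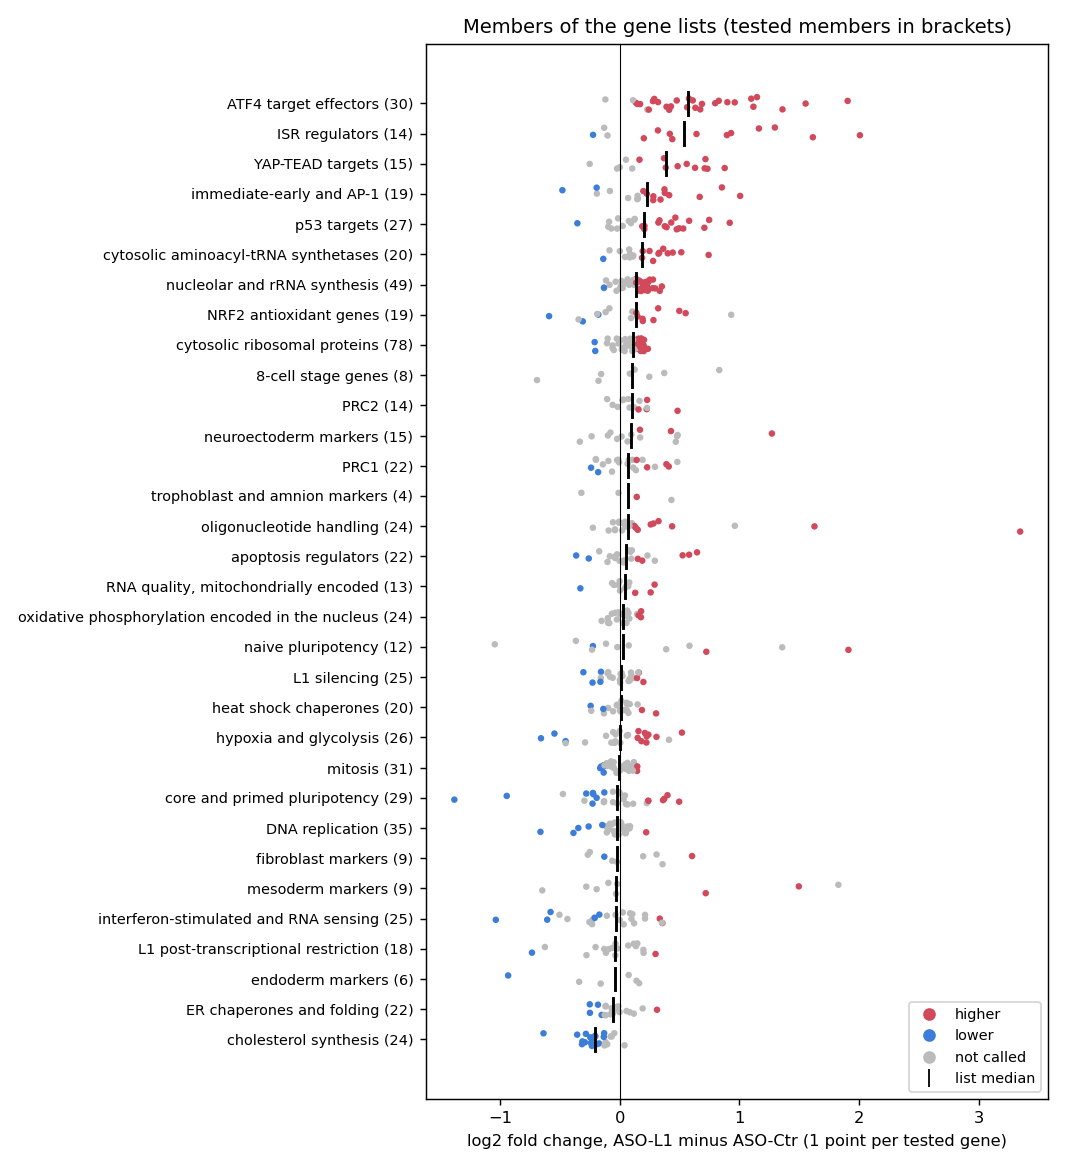
Log2 fold change of ASO-L1 minus ASO-Ctr for each tested member of the 32 gene lists, with 1 point per gene coloured by its call with the replicate block and a black bar at each list's median. The ATF4 effectors and the regulators of the integrated stress response have the highest medians, 0.57 and 0.54, and the cholesterol list the lowest, -0.20.

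The cells carried the markers of pluripotent stem cells in all groups. The summed level of 29 core and primed pluripotency genes was between 14200 and 14700 CPM in ASO-Ctr and 14300 CPM in both ASO-L1 libraries. POU5F1 (OCT4) stood at 1130 and 1010 CPM in ASO-Ctr and at 1130 and 1060 CPM in ASO-L1 and was not called (log2 fold change 0.03 ± 0.05, adjusted p = 0.678). SOX2 was higher by 0.24 ± 0.05 and NANOG lower by 0.22 ± 0.05, and neither was called without the block. SOX2 lost its call without replicate 1 of ASO-Ctr (adjusted p = 0.111) and NANOG without replicate 1 of ASO-L1 (0.102). Of the 29 genes, 6 were called higher and 8 lower, beside 9.88% and 11.6% of all genes, with a median of -0.02. Without the block the growth factor gene FGF2 was called higher and LEFTY1 and LEFTY2 lower. OTX2, a factor of the primed state and of anterior neural tissue, was at 154 and 123 CPM against 213 and 177 CPM (1.41-fold, adjusted p = 3.2e-11, and 0.143 without the block).

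Within this list the fitted decreases of LEFTY1 and LEFTY2 were the largest, both inhibitors of Nodal signalling, which is itself needed to hold the primed state. LEFTY1 was at 6.96 and 5.83 CPM in ASO-Ctr and at 2.35 and 2.47 CPM in ASO-L1 (log2 fold change -1.38 ± 0.14, adjusted p = 8.4e-11). LEFTY2 was at 6.11 and 5.79 CPM against 3.27 and 2.88 CPM (-0.94 ± 0.138, adjusted p = 6.6e-07). NODAL itself was at 1.59 and 0.933 CPM against 0.877 and 0.795 CPM and was not called (adjusted p = 0.218). FST, the activin inhibitor described above, moved in the opposite direction to the LEFTY genes.

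Genes of the 8-cell stage, the subject of the study, gave no call with all libraries. Of 39 in the count table, 8 passed the filter on low counts, and 0 of these were called by edgeR with or without the block, with 0 at an unadjusted p under 0.05 without it. By DESeq2 and limma-voom, 0 were called as well. With replicate 2 of ASO-L1 left out, ALPPL2 was called higher and MFSD2A lower, 2 genes named after their values were seen. ALPPL2, a phosphatase gene, stood at 0.159 and 0.394 CPM in ASO-Ctr and at 0.746 and 0.466 CPM in ASO-L1, and MFSD2A, a lipid transporter gene, at 30.5 and 30.4 CPM against 25.0 and 28.6 CPM. Of the 31 untested genes, 19 had a count of 0 in every library, among them DUX4, DUXA and LEUTX, early regulators of the human genome's activation. The 31 together held 3 and 19 counts in the ASO-Ctr libraries and 12 and 16 counts in the ASO-L1 libraries. ZSCAN4, a marker of the 8-cell stage, had 0 and 0 counts in ASO-Ctr and 1 and 1 in ASO-L1, which is within the 3 counts that a count of 0 allows. TPRX1 had 0 and 3 counts against 0 and 1. A change in these genes was not detectable at this depth.

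Of 12 naive pluripotency genes tested, 2 were called higher, KLF4 as given above and KLF5, and NANOG was the 1 called lower, beside 9.88% and 11.6% of all genes. KLF5 was at 1.01 and 1.17 CPM in ASO-Ctr and at 2.15 and 1.68 CPM in ASO-L1 (1.65-fold, adjusted p = 0.0133), a call lost without the block and without replicate 1 of ASO-Ctr (0.129) or of ASO-L1 (0.221). TFCP2L1 and DPPA3 had log2 fold changes of -0.36 and 0.39 and were not called.

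Markers of other lineages were called in both directions. SOX21, a neural factor also expressed in stem cells, was at 12 and 6.38 CPM in ASO-Ctr and at 26.1 and 17 CPM in ASO-L1 (2.41-fold, adjusted p = 1.4e-14, and 0.127 without the block). FOXA2, an endoderm factor, was at 3.66 and 3.16 CPM against 1.95 and 1.61 CPM (1.91-fold lower, adjusted p = 3.2e-05, and 0.0428 without the block). The neuroectoderm list had 3 of 15 tested members higher and 0 lower, the mesoderm list 2 of 9 higher, the endoderm list 1 of 6 lower, the trophoblast and amnion list 1 of 4 higher and the fibroblast list 1 of 9 higher and 1 lower, beside 9.88% and 11.6% of all genes. Without the block FOXA2 and, of the fibroblast list, COL1A1 were called. Summed endoderm markers ranged from 6.30 to 8.87 CPM in ASO-Ctr and from 4.87 to 6.60 CPM in ASO-L1. Summed neuroectoderm markers were 688 and 681 CPM against 759 and 745 CPM, and summed mesoderm markers 127 and 132 CPM against 123 and 133 CPM. EOMES, a mesendoderm factor, had 0 counts in replicate 1 of ASO-Ctr and stood at 0.364 CPM in replicate 2, against 0.833 and 0.639 CPM in ASO-L1, a call (adjusted p = 0.0119) that was lost without the block (0.251) and without replicate 1 of ASO-Ctr (0.158) or of ASO-L1 (0.243). Several defining markers were at or near 0: HAND1 had 0 counts in every library, CDX2 had 0 counts in both ASO-Ctr libraries and 1 and 0 in ASO-L1, and SOX17 had 0 and 5 counts against 0 and 3. The part of other cell types in the results was not tested.

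Ribosome production genes were shifted upward by small amounts with the block. Of 49 genes of the nucleolus and ribosomal RNA synthesis, 26 were called higher and 1 lower, beside 9.88% and 11.6% of all genes, with a median log2 fold change of 0.14. Of 78 cytosolic ribosomal proteins, 34 were higher and 2 lower, with a median of 0.11 (0.142 in replicate 1 and 0.095 in replicate 2). RRP12, a ribosome export factor, was at 86.5 and 80.1 CPM in ASO-Ctr and at 110 and 100 CPM in ASO-L1 (1.26-fold, adjusted p = 8.3e-07, and 0.0771 without the block). None of either list was called without the block by edgeR, where 18 nucleolar and 1 ribosomal protein genes had an unadjusted p under 0.05. By DESeq2 with the block, 20 nucleolar and 33 ribosomal protein genes were higher. Without replicate 1 of ASO-Ctr 15 nucleolar and 0 ribosomal protein genes were higher, and without replicate 1 of ASO-L1 the counts were 17 and 10. Leaving out replicate 2 of either group gave 17 nucleolar genes.

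Chromatin regulators had small differences. Polycomb repressive complex 2 (PRC2) places the repressive mark H3K27me3, and of 14 of its genes 4 were called higher and 0 lower, beside 9.88% and 11.6% of all genes. PHF1, an accessory subunit, was at 32.8 and 32.9 CPM in ASO-Ctr and at 46.8 and 45.7 CPM in ASO-L1 (1.4-fold, adjusted p = 2.5e-08) and was the 1 member called without the block. The catalytic subunit gene EZH2 was at 128 and 130 CPM against 121 and 127 CPM and was not called (adjusted p = 0.445). Of 22 genes of PRC1, which compacts chromatin and ubiquitinates H2A, 4 were higher (18.2%) and 2 lower (9.09%). CBX2, a reader subunit, fell by 0.24, and BMI1 rose by 0.39. Without the block 0 PRC1 genes were called by edgeR, with 4 at an unadjusted p under 0.05. Leaving out replicate 1 of ASO-Ctr gave 2 PRC1 genes higher and 1 lower, and without replicate 1 of ASO-L1 1 was higher.

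Of 25 genes that silence L1 and other repeats, 3 were called higher (12%) and 4 lower (16%), beside 9.88% and 11.6% of all genes, and none passed without the block by edgeR (3 at an unadjusted p under 0.05). CBX5, which codes for heterochromatin protein 1 alpha, was at 651 and 661 CPM in ASO-Ctr and at 526 and 538 CPM in ASO-L1 (1.23-fold lower, adjusted p = 3.8e-06). DNMT3B, a DNA methyltransferase, was at 1650 CPM in both ASO-Ctr libraries and at 1360 and 1470 CPM in ASO-L1 (1.17-fold lower, adjusted p = 0.0002), a call lost without replicate 1 of ASO-Ctr (0.0926). Without that library 1 silencing gene was higher and 1 lower, and without replicate 1 of ASO-L1 0 and 2. Of 18 factors that restrict L1 after transcription, SAMHD1 was the 1 called lower and DGCR8 the 1 called higher (3 were lower without replicate 2 of ASO-Ctr and 2 without replicate 2 of ASO-L1). SAMHD1, which depletes the nucleotides needed for reverse transcription, was at 56.3 and 52.8 CPM against 31.0 and 34.1 CPM. Its fall of 0.73 ± 0.06 on the log2 scale (1.66-fold, adjusted p = 1.1e-13) was called without the block as well (adjusted p = 0.00563).

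Interferon-stimulated and RNA-sensing genes, which respond to foreign nucleic acid, were called in both directions. Of 25 tested, 2 were called higher (8%) and 5 lower (20%), beside 9.88% and 11.6% of all genes, with a median log2 fold change of -0.03. IFITM1 rose 1.26-fold and DDX60 fell by 0.60, and 0 of the 25 were called without the block by edgeR (6 members at an unadjusted p under 0.05). Without replicate 1 of ASO-Ctr or of ASO-L1 0 were higher and 2 lower, and IFITM1 lost its call (adjusted p = 0.0991 and 0.162). DDX60 lost its call without replicate 2 of ASO-L1 (0.0735). Of 24 genes known to bind, move or cut therapeutic oligonucleotides, 9 were called higher and 0 lower, and without replicate 1 of ASO-L1 5 were higher. Without the block 2 were, NEAT1 and MALAT1. This list holds ANXA1 and NEAT1, described above, of which NEAT1 is not a handling protein but the RNA scaffold of paraspeckles. ANXA2, an annexin of endosomes, was at 29.5 and 27.8 CPM in ASO-Ctr and at 41.8 and 36.6 CPM in ASO-L1 (1.36-fold, adjusted p = 3.6e-07, and 0.0642 without the block). RNASEH2C, a subunit of RNase H2, rose 1.25-fold (0.154 without the block), and RNASEH1, the enzyme that antisense oligonucleotides recruit, had a log2 fold change of 0.10 (adjusted p = 0.24). MALAT1, a nuclear RNA like NEAT1, had a fitted change of 0.96 that was not called (adjusted p = 0.123). It was called without the block (0.0161) and when either ASO-Ctr library was left out (adjusted p = 3.26e-23 without replicate 1 and 6.57e-71 without replicate 2) or replicate 2 of sO-L1 (0.0355).

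Cell cycle genes were called in both directions. Of 35 DNA replication genes, 1 was called higher (2.86%) and 5 lower (14.3%), beside 9.88% and 11.6% of all genes, with a median of -0.02. POLA2, a subunit of the primase complex, was at 61.4 and 60.2 CPM in ASO-Ctr and at 36.8 and 39.8 CPM in ASO-L1 (1.58-fold lower, adjusted p = 4.2e-13) and also passed without the block. UNG, which removes uracil from DNA, fell by 0.34 and passed both fits. Of 31 mitosis genes, 2 were higher (6.45%) and 5 lower (16.1%), none without the block by edgeR (0 at an unadjusted p under 0.05), and DESeq2 with the block called 0 of them lower. With replicate 1 of ASO-Ctr or of ASO-L1 left out, 3 replication genes and 0 mitosis genes were called lower.

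The direction of change went with the genomic span of a gene, the distance from its start to its end with introns included. Spans were taken from GENCODE v29 by gene symbol, which matched 80.7% of the tested genes and 14076 protein-coding genes. Of the 1212 protein-coding genes spanning under 5 kb, 13.7% were called higher and 7.34% lower. In genes of 20 to 50 kb the shares were 12.7% and 11.1%, and in the 1735 genes of 100 to 200 kb they were 6.28% and 20.9%. Of the 986 genes of 200 to 500 kb, 3.25% were called higher and 37.3% lower. Of the 265 genes of 500 kb and over, 1.51% were higher and 45.7% lower, and their median log2 fold change was -0.354. This median difference was -0.344 in replicate 1 and -0.24 in replicate 2, so both replicates showed it. Without the block, 3 of these 265 genes were called higher and 26 lower, beside 17 higher and 4 lower of the 1212 under 5 kb.

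**Figure D5:**
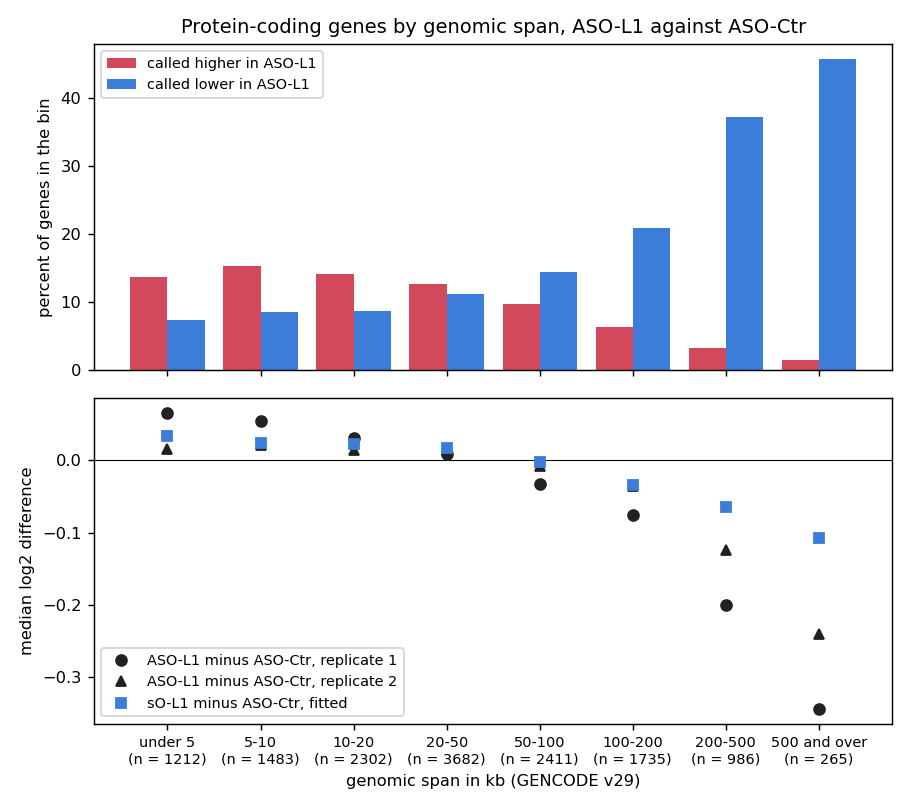
Protein-coding genes by genomic span in kb, with the number of genes in each bin under the axis. The upper bars give the percent called higher and lower in ASO-L1 against ASO-Ctr, and the lower points give the median log2 difference in each replicate and, in blue, of sO-L1 minus ASO-Ctr; the share called lower goes from 7.34% to 45.7% over the bins.

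The 24 genes with the largest changes follow the same order. The 12 increases had a median span of 6.84 kb, with 11 under 20 kb, and the 10 decreases with a matched span a median of 309 kb, with 3 of at least 500 kb. Among those 3 were CTNNA2 (1460 kb) and IMMP2L (899 kb). Among called protein-coding genes the median span was 23.3 kb for higher and 71.5 kb for lower genes, beside 31.2 kb for genes not called. EGLN3, which spans 539 kb and rose, is an exception. The sO-L1 libraries showed a smaller difference from ASO-Ctr in the same direction, with a median of -0.107 in genes of 500 kb and over. Against sO-L1 the median of these genes in ASO-L1 was -0.269. The part of RNA integrity, read coverage along genes and expression level in this pattern was not tested.

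Fewer genes were called between the antisense and the sense control than between ASO-L1 and either of them. Against sO-L1, 1982 genes (10.3%) were called higher and 2430 (12.7%) lower in ASO-L1, together 23.0%, and 175 (0.914%) and 177 (0.924%) without the block. The difference between the 2 contrasts of ASO-L1 is the difference between the 2 controls themselves, for which 126 genes were called higher (0.658%) and 204 lower (1.06%) in sO-L1. Without the block 0 genes were called between the controls by edgeR, with 569 at an unadjusted p under 0.05, and DESeq2 with the block called 54 and 71. Leaving out replicate 1 of sO-L1 left 2 higher and 7 lower genes between the controls, and leaving out replicate 1 of ASO-Ctr left 17 and 70.

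For the 105 genes at least 2-fold higher in ASO-L1 than in ASO-Ctr, the median log2 fold change was 1.38, and the same genes had a median of 1.27 against sO-L1. For the 105 genes at least 2-fold lower it was -1.27 against ASO-Ctr and -0.98 against sO-L1, with a median of -0.37 between the controls. These genes were selected on the values of ASO-Ctr, so the smaller value against the other control is a description.

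Several named genes differed between the controls. AMOTL2, a regulator of YAP, stood at 35.5 and 30.7 CPM in ASO-Ctr, 43.5 and 38.4 CPM in sO-L1 and 60.6 and 48.7 CPM in ASO-L1. The controls differed by 0.31 ± 0.06 (adjusted p = 0.00208), so its rise was 0.72 against ASO-Ctr and 0.41 against sO-L1. SOX21 was lower in sO-L1 (9.31 and 4.10 CPM) than in ASO-Ctr by -0.49 (adjusted p = 0.0137), and its rise was larger against sO-L1, 1.76 in place of 1.27. FOSL1 was also lower in sO-L1, with a difference between controls of -0.28 (adjusted p = 0.0412). ASNS was higher in sO-L1, at 124 and 109 CPM, by 0.19 (adjusted p = 0.0398), and CBX5 was lower, at 534 and 622 CPM, by -0.18 (adjusted p = 0.0324). LEFTY1 had 5.08 and 4.20 CPM in sO-L1, between the other groups, and its difference between controls, -0.46, missed the threshold (adjusted p = 0.0526).

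For the gene lists the controls gave medians on the same side of 0 for the stress response. The regulators of the integrated stress response had medians of 0.54 against ASO-Ctr and 0.43 against sO-L1, and the ATF4 effectors 0.57 and 0.54. Between the controls 0 of 14 and 1 of 30 members were called, beside 1.72% of all genes. Chaperones of the endoplasmic reticulum had 4 of 22 members lower against ASO-Ctr and 11 of 22 against sO-L1. HSP90B1, the chaperone GRP94, shows this: it was at 1430 and 1370 CPM in ASO-Ctr, 1590 and 1580 CPM in sO-L1 and 1190 and 1280 CPM in ASO-L1, its call against ASO-Ctr was lost without the block (adjusted p = 0.25) and without replicate 1 of ASO-Ctr (0.28) or of ASO-L1 (0.304), and the controls differed by 0.18 (adjusted p = 0.0306). DNA replication genes were called lower in 5 of 35 cases against ASO-Ctr and in 12 of 35 against sO-L1, and nucleolar genes higher in 26 of 49 and 9 of 49 cases. Whether these counts differ between the contrasts was not tested as a whole.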

How the data were processed

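Poly(A) RNA of 6 libraries was measured, and 4 of them (2 ASO-L1, 2 ASO-Ctr) make the comparison. Groups and replicate numbers come from the labels. The values analysed are the deposited raw counts per gene, in a table named for duplicate removal. The submitters' processing notes list, as the tools behind these deposited counts, TopHat2 2.0.13, Trim Galore 0.4.0 and featureCounts (Subread 1.5.0), and the build hg19. The authors' deposited log2 normalized table, named for a batch correction that the sources used here do not describe, served only to check columns. Its mean differences of ASO-L1 minus ASO-Ctr had a Pearson correlation of 0.979 with the fitted log2 fold changes across 16669 genes. The strand setting is not given in the sources used here, so overlapping genes are uncertain.

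The table holds 53715 genes and 92 spike-in entries, which were left out. filterByExpr (minimum count 10, minimum total 15) kept 19156 genes. TMM factors were 0.983 to 1.02, and all 6 libraries were fitted together in edgeR 4.0.16 (R 4.3.3) by the robust quasi-likelihood method, with group and replicate number, which left 2 residual degrees of freedom before moderation. Moderation added a median of 44.8 prior degrees of freedom, so each gene's spread was taken largely from other genes. SE was derived from the fold change and its F statistic. CPM uses TMM library sizes.

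The labels do not say that a replicate number marks a batch. Replicate differences correlated at 0.191 between ASO-Ctr and ASO-L1, at 0.258 between ASO-Ctr and sO-L1 and at 0.278 between sO-L1 and ASO-L1. All 3 were positive, but with 2 replicate numbers this is a hint from the data and does not establish the pairing.

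The comparison and the gene lists were chosen with earlier results of these data known, and lists are described by counts and medians with no set test. Named genes are the 12 largest called changes in each direction (average log2 CPM of at least 1, equal sign in both replicates) and, per list, the 4 or fewer tested members lowest in p. Other genes named, such as ATF4, FOS, HMOX1, PPP1R15A, TRIB3, LEFTY2, POU5F1, SOX2, HSPA5, EZH2, MALAT1 and the eIF2 kinases, were chosen after their values were seen. Some genes that the rule names are not reported here. Alternatives were 2 other scalings, 2 other filters, DESeq2 1.42.0, limma-voom (limma 3.58.1), no block, 4 libraries alone, each library left out and thinning to the shallowest library. On simulated data for this comparison (19156 genes), the test recovered 58% of 1.5-fold changes and 68% of 2-fold changes, with 13 unchanged genes called. The simulated counts came from the fitted model, with the replicate difference shared by all groups. They therefore cannot show whether the block is right for these libraries.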

Additional observations from a re-analysis of the deposited data

How the results depend on the processing

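Under the 15 alternatives none of the 144 genes named by rule changed direction. The 24 largest changes kept their call in 358 of 360 fits, the losses being ANXA1 and ZNF66 without the replicate block. These 24 were selected in the same libraries as called, large and equal in sign in both replicates, so most of the fits could hardly lose them. Of the 144 genes, 72 kept their result without the block, and with DESeq2 126 of the 138 that had an adjusted p. Genes chosen after their values were seen, such as TRIB3, are not among the 144. With 2 libraries per group, a group left with 1 library was assumed to vary like the others. Depth was limited by replicate 1 of ASO-Ctr. No value checks the level of L1.

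In ASO-L1 against ASO-Ctr, 1893 genes were higher and 2227 lower. DESeq2 gave 1146 and 1290, and the fit without the replicate block 173 and 201. Leaving out a library gave 1058 to 1706 higher and 1278 to 1987 lower genes. Against sO-L1, 1982 were higher and 2430 lower. DESeq2 gave 1051 and 1304, the fit without the block 175 and 177, and leaving out a library 773 to 2087 and 1029 to 2615. Between sO-L1 and ASO-Ctr, 126 were higher and 204 lower. DESeq2 gave 54 and 71, limma-voom 67 and 124, the fit without the block 0 and 0, and leaving out a library 2 to 217 and 7 to 279. The 4 libraries of the controls alone gave 229 higher genes.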
